A study of Mus musculus with 18 samples.

Results

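The genes described here are 32 mouse genes of the stress and amino acid response that is driven by the transcription factor ATF4, taken from a list of known ATF4 targets and *Atf4* itself and matched to the count table by symbol and Ensembl identifier. The table holds 55414 genes. Of the 32 members, 30 had enough counts to be tested and 2 did not (*Fgf21* and *Vldlr*, with 0 to 10 counts per library). The libraries were made from total RNA, depleted of rRNA, of N2A (Neuro-2a) cells, a mouse neuroblastoma line, 72 h after transfection with 1 of 6 siRNAs. Small interfering RNAs (siRNAs) guide the cleavage of mRNAs that carry a matching sequence. The labels name 2 negative control scrambled siRNAs (Scramble siRNA A and B), 2 fmrp siRNAs (*Fmr1* siRNA A and B) and 2 znf siRNAs (*Zfp598* siRNA A and B), and each siRNA was used in 3 libraries (replicates 1 to 3), 18 in all. *Fmr1* encodes FMRP, an RNA-binding repressor of translation, and *Zfp598* encodes a ubiquitin ligase that recognizes collided ribosomes at the start of no-go mRNA decay (NGD). The labels give no other treatment, all libraries came from a single line, and the replicates of a siRNA were separate knockdowns (KD) in that line. The p-values of comparisons between single siRNAs thus measure the spread between such knockdowns. Where the 2 siRNAs of a condition are pooled, the spread also takes in differences between the siRNAs. In whole-culture RNA, a change in the number of cells that use a gene and a change in RNA per cell cannot be told apart.

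ATF4 is made when kinases that sense amino acid shortage, endoplasmic reticulum stress, heme shortage or double-stranded RNA phosphorylate the initiation factor eIF2. Most translation then slows while upstream reading frames let ribosomes reach the *Atf4* coding sequence, and ATF4, paired with C/EBP proteins, raises transcription of genes that make, import and charge amino acids. Its targets also include regulators that prolong, restrain or end the response, among them CHOP (encoded by *Ddit3*), TRIB3 and GADD34 (encoded by *Ppp1r15a*). Colliding ribosomes can set off the same pathway through the kinase GCN2.

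ATF4 and C/EBP dimers bind the composite C/EBP-ATF response element, searched for here as TGATGNAA on both strands. The RefSeq promoter table, made on GRCm38.p6 and covering 250 bases before to 50 bases after each start site, held 25 of the 32 members with 29 promoters, and each of the 29 sequences matched GRCm39 at a single place. It had no entry for *Aldh1l2*, *Cth*, *Slc7a5*, *Slc7a3*, *Wars1*, *Nars1* and *Cars1*. The element was present in 10 of the 25 members (40.0%), against 4.51% of the 27025 genes in the table and 3.97% of all 32851 promoters. The 28-base windows around it are shown because the element is the known binding site of ATF4, the factor that defines this list. They read 5′ to 3′ on the strand of the gene, and capitals mark the element, which is written as its reverse complement where it lies on the opposite strand.
Atf3 (chr1:190915623-190915650, minus strand): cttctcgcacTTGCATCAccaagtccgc
Nupr1 (chr7:126224735-126224762, minus strand): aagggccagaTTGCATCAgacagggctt
Trib3 (chr2:152185949-152185976, minus strand): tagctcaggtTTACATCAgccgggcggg
Chac1 (chr2:119181520-119181547, plus strand): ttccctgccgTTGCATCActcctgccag
Herpud1 (chr8:95112935-95112962, plus strand): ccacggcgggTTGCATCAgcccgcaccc
Asns (chr6:7693215-7693242, minus strand): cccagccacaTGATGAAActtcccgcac
Gars1 (chr6:55014946-55014973, plus strand): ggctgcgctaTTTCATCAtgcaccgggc
Fgf21 (chr7:45265036-45265063, minus strand): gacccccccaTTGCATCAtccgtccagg
Vldlr (chr19:27194210-27194237, plus strand): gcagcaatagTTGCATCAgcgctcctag

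All positions are on GRCm39. The first base of the element lay 110 bases upstream of the start in *Atf3* and in *Nupr1*, 112 bases in *Herpud1*, 193 bases in *Chac1*, 23 bases in *Asns* and 30 bases in *Gars1*, whereas in *Trib3* it lay 15 bases downstream. *Atf3*, *Nupr1*, *Chac1*, *Herpud1*, *Fgf21* and *Vldlr* held the same 8 letters (TTGCATCA) with different bases on both sides. *Slc7a11*, the member with the largest rise described below, held the element at 2 places, 66 and 47 bases upstream and on opposite strands. The 150 bases before its start are shown to display both.
Slc7a11 (chr3:50398063-50398212, minus strand): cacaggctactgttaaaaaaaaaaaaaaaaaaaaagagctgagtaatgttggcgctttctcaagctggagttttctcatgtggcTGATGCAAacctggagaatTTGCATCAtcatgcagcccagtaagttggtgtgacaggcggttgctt

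Between the 2 elements of *Slc7a11* lie 11 bases. The cyclic AMP response element TGACGTCA, searched on both strands, was found in *Ppp1r15a* alone among the 25 members, against 2.03% of genes, and the endoplasmic reticulum stress response element (CCAAT and CCACG 9 bases apart) in none of them (against 0.137% of genes). A match is a description of the sequence, and a member with no match may have the element outside this window.

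Total counts ranged from 7674724 to 15414590 per library, and a single feature without an entry in GENCODE M39 took 5.00% to 25.8% of them, with the highest shares in *Zfp598* siRNA A replicates 2 (15.2%) and 3 (25.8%). No molecular identifiers are described, so the counts reflect reads rather than molecules and their precision covers counting error only. The targeted mRNAs were low where the labels say they were targeted, and *Fmr1* was also lower with *Zfp598* siRNA B (log2 -0.33, edgeR adjusted p = 0.0401). *Fmr1* fell with its siRNAs A and B (log2 fold changes -1.60 and -1.29), and *Zfp598* fell with its own (-1.55 and -1.52), each without overlap between libraries and with an edgeR adjusted p of at most 1.15e-07. All 12 listed markers of neuroblastoma and sympathetic neurons had counts, with a summed level of 1930 to 3920 CPM (counts per 1000000, with library sizes scaled by the TMM method). That sum was 2620 to 3370 CPM with Scramble siRNA A, 1930 to 2050 CPM with Scramble siRNA B, and up to 3920 CPM with *Zfp598* siRNA A. Among the 12, *Hand1* was near the floor (at most 1.17 CPM), and *Uchl1* alone contributed 749 to 2060 CPM. Of 10 pluripotent stem cell markers 9 were in the table, and their summed level was 41.2 CPM in *Fmr1* siRNA B replicate 1 against 3.16 to 8.64 CPM in the other 17 libraries. The same library had counts for 30124 genes, against 22161 to 26623 in the others. Fibroblast markers summed to 6.45 to 19.1 CPM with *Lum* at 0 throughout, and macrophage markers to 1.28 to 4.22 CPM with *Adgre1* at 0 throughout. The part of these markers in the results was not tested. The annotated exons of 16 members overlap those of another gene, nearly always on the opposite strand, and since the strand setting of the counting is not given in the sources used here, their counts are uncertain (*Aldh1l2*, *Asns*, *Atf5*, *Cars1*, *Cebpb*, *Ddit3*, *Fgf21*, *Gdf15*, *Herpud1*, *Nupr1*, *Ppp1r15a*, *Sars1*, *Shmt2*, *Slc3a2*, *Stc2* and *Vldlr*). The overlap was longest in *Ddit3* (3576 bases, with *Mars1*) and *Aldh1l2* (1056 bases, with *Nopchap1*).

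Each KD siRNA was set against the Scramble siRNA that bears its letter, with 3 libraries on each side, in a model of all 18 libraries over 19003 genes. A gene is said to be called, or to have risen or fallen, where its Benjamini-Hochberg adjusted p over those genes was under 0.05. The *Fmr1* siRNA A and *Zfp598* siRNA A comparisons share the Scramble siRNA A libraries, and the siRNA B comparisons share those of Scramble siRNA B. The question addressed is how far this stress response moved when FMRP or Zfp598 was depleted.

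The members moved most with *Fmr1* siRNA B, where 25 of the 30 fell and 1 rose, against 10.4% of all tested genes that fell and 11.0% that rose. The median log2 fold change of the 30 was -0.61, and 6 members fell by more than 2-fold (*Ddit3*, *Trib3*, *Ppp1r15a*, *Atf3*, *Aldh1l2* and *Nupr1*). Shares of all tested genes past 2-fold were not computed, so counts at that limit are descriptions here and below. With *Zfp598* siRNA B, 16 members fell and 2 rose, against backgrounds of 13.2% and 12.0%, with a median of -0.40. *Zfp598* siRNA A gave 11 lower members and 0 higher ones (1 at an unadjusted p under 0.05 in edgeR, and 0 with DESeq2) against 5.43% and 5.60%, with a median of -0.16. With *Fmr1* siRNA A, 6 rose and 4 fell against 9.35% and 12.7%, and the median was 0.03. The medians over all 19003 genes lay between 0.0012 and 0.0126 in these comparisons.

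The size of these counts rested in part on single libraries. The count of lower members with *Fmr1* siRNA B was 20 without Scramble siRNA B replicate 3 and 20 without *Fmr1* siRNA B replicate 1, the library with the raised stem cell markers. With *Zfp598* siRNA A it was 6 without Scramble siRNA A replicate 3, 6 without *Zfp598* siRNA A replicate 2, and 9 without replicates 2 and 3 of *Zfp598* siRNA A together, while 3 members were called higher without its replicate 1. With *Fmr1* siRNA A, 2 members were called lower without Scramble siRNA A replicate 3. The single member called higher with *Fmr1* siRNA B, *Slc7a11*, was not called without Scramble siRNA B replicate 1 or 2 or without *Fmr1* siRNA B replicate 1.

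**Figure D1:**
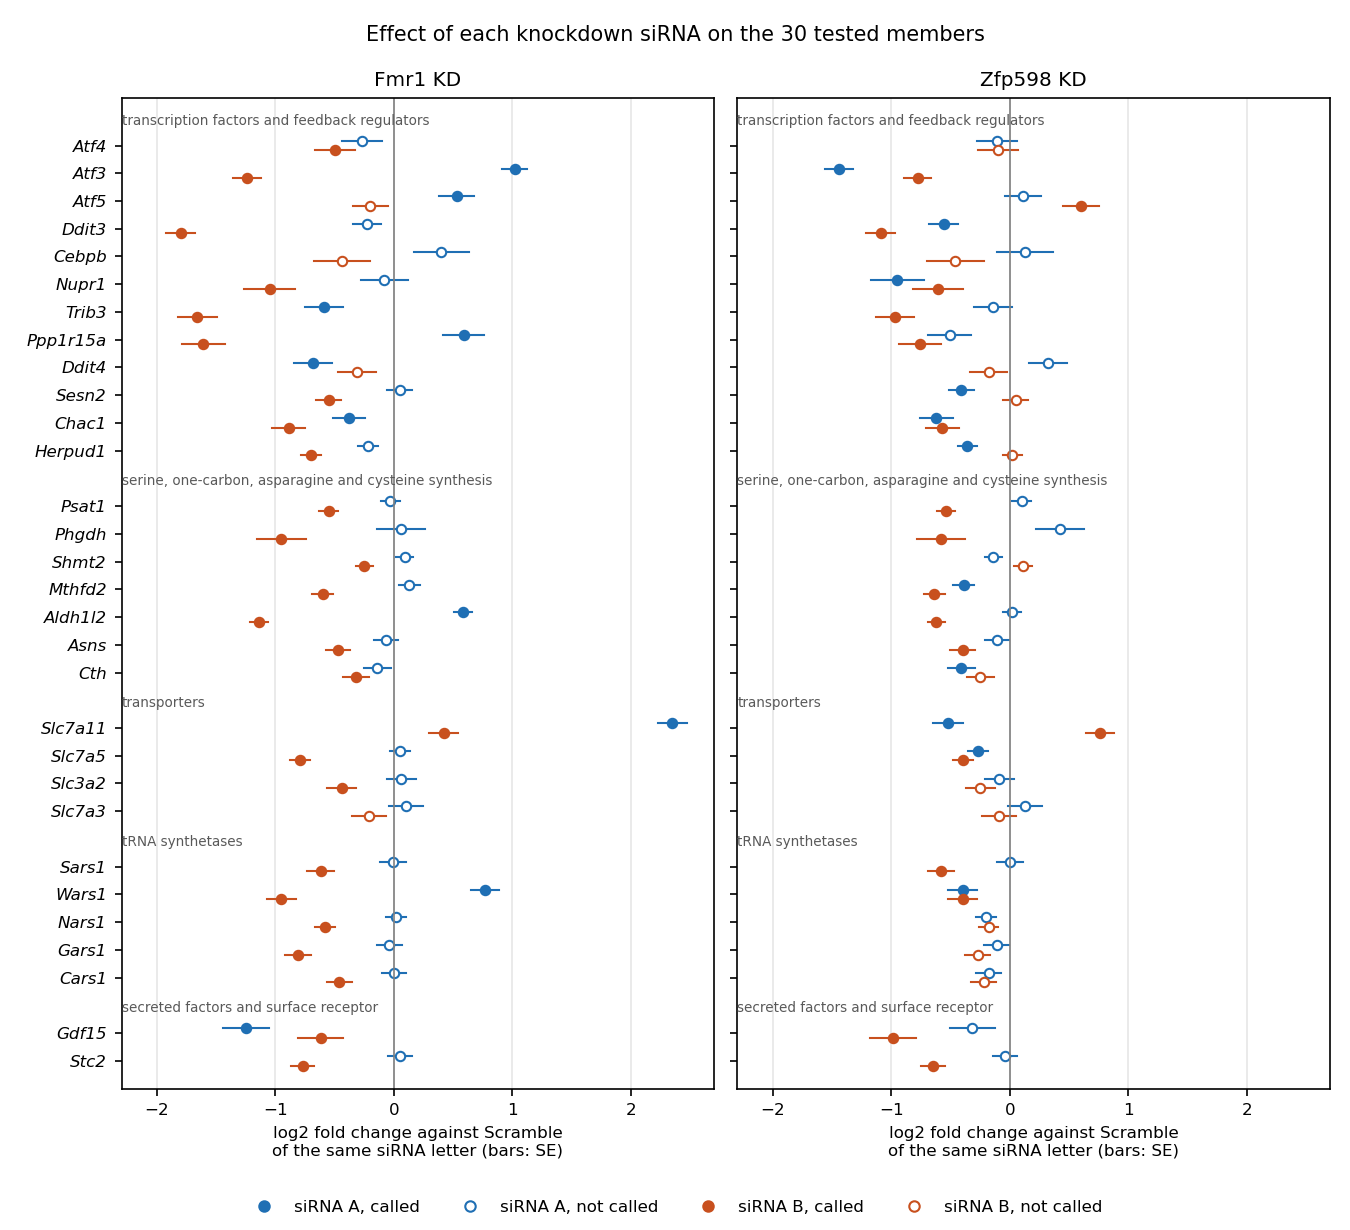
Log2 fold change of each tested member (rows, in 5 subgroups) against the Scramble siRNA of the same letter, for *Fmr1* KD (left) and *Zfp598* KD (right), with siRNA A in blue and siRNA B in orange; filled points were called at an adjusted p under 0.05 and bars are standard errors. With *Fmr1* siRNA B 25 of 30 points are called below 0, whereas with *Fmr1* siRNA A 6 are called above 0 and 4 below, and *Slc7a11* stands apart at 2.35.

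The members differed widely in their level per kilobase of exon in the 6 Scramble libraries. *Atf4* was highest at 285 CPM per kb, followed by *Slc7a5* (261), *Phgdh* (172) and *Ddit4* (129). The lowest tested members were *Nupr1* (4.10 CPM per kb) and *Slc7a11* (2.51), and below them stood *Fgf21* (0.200) and *Vldlr* (0.0273). The Scramble siRNAs themselves differed, with 7 members higher and 3 lower with siRNA B than with siRNA A against 9.48% and 11.6% of all tested genes, and the median of the 30 was 0.04. The count of lower members was 1 without Scramble siRNA A replicate 3, without Scramble siRNA B replicate 1 or without Scramble siRNA B replicate 2. *Wars1* showed the largest difference (log2 0.93), followed by *Mthfd2* (0.58), *Stc2* (0.57), *Aldh1l2* (0.52) and *Psat1* (0.50), all higher with siRNA B. *Gdf15* (-0.53), *Atf3* (-0.51) and *Chac1* (-0.42) were lower with it. The call was lost for *Gdf15* when any of 13 libraries was left out (-0.42 to -0.58) and for *Ddit3* without any of 6, among them Scramble siRNA B replicate 3 (0.15). It was lost for *Slc7a5* without Scramble siRNA A replicate 1 (0.22) or Scramble siRNA B replicate 3 (0.24), and for *Chac1* without the same 3 libraries that lowered the count (-0.33 to -0.36). These differences enter every comparison with the matched Scramble siRNA.

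Among the transcription factors, *Atf4* mRNA stood at 828, 578 and 826 CPM in replicates 1, 2 and 3 of Scramble siRNA A and at 545, 558 and 725 CPM with Scramble siRNA B. The levels were 608, 563 and 677 CPM with *Fmr1* siRNA A and 398, 420.5 and 478 CPM with *Fmr1* siRNA B. *Zfp598* siRNA A gave 475, 769.8 and 819 CPM and *Zfp598* siRNA B 518, 561 and 628 CPM. The libraries of *Fmr1* siRNA B were thus below every Scramble library, while those of the other KD siRNAs overlapped with their Scramble libraries. The log2 fold change with *Fmr1* siRNA B was -0.50 (standard error 0.167, edgeR adjusted p = 0.0380), and it was no longer called without Scramble siRNA B replicate 3 (-0.36), *Fmr1* siRNA B replicate 1 (-0.45) or *Fmr1* siRNA B replicate 2 (-0.48). ATF4 is controlled mainly by translation, and its protein was not measured in these files.

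*Ddit3* encodes CHOP, a transcription factor of prolonged stress. Its level was 108, 109 and 118 CPM with Scramble siRNA A and 118, 129 and 181 CPM with Scramble siRNA B. *Fmr1* siRNA A gave 94.7, 93.3 and 97.8 CPM and *Fmr1* siRNA B 39.1, 39.9 and 43.7 CPM. With the *Zfp598* siRNAs it was 67.2, 84.3 and 76.6 CPM (A) and 63.7, 66.4 and 70.1 CPM (B). Scramble siRNA B replicate 3 was the highest of all 18 libraries, and the libraries of each KD siRNA lay below those of the matched Scramble siRNA. The log2 fold changes were -1.80 with *Fmr1* siRNA B (standard error 0.123, edgeR adjusted p = 3.53e-09), the largest fall of any member in these 4 comparisons, -1.09 with *Zfp598* siRNA B and -0.56 with *Zfp598* siRNA A, whereas -0.23 with *Fmr1* siRNA A was not called (edgeR adjusted p = 0.187). Its annotated exons are those that share bases with *Mars1*, the methionine tRNA synthetase gene.

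*Atf3*, a stress-induced transcription factor that acts downstream of ATF4, moved in opposite directions with the *Fmr1* siRNAs. It stood at 35.6, 33.8 and 40.0 CPM with Scramble siRNA A and 24.3, 25.1 and 27.3 CPM with Scramble siRNA B. The level was 77.8, 74.8 and 68.7 CPM with *Fmr1* siRNA A and 10.1, 11.0 and 11.4 CPM with *Fmr1* siRNA B. *Zfp598* siRNA A gave 12.2, 12.9 and 16.1 CPM and *Zfp598* siRNA B 13.4, 14.7 and 16.6 CPM. All libraries of *Fmr1* siRNA A were above every other library, and those of the other KD siRNAs were below every Scramble library. *Atf3* rose (log2 1.02) with *Fmr1* siRNA A (standard error 0.105, edgeR adjusted p = 5.90e-07), and its changes were -1.24 with *Fmr1* siRNA B, -1.44 with *Zfp598* siRNA A and -0.78 with *Zfp598* siRNA B, all called.

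Of the other transcription factors, *Nupr1*, a small stress-induced chromatin protein, fell with *Fmr1* siRNA B (-1.05), *Zfp598* siRNA A (-0.95) and *Zfp598* siRNA B (-0.61). It had 10.2, 14.3 and 18.9 CPM with Scramble siRNA B and 6.44, 5.41 and 9.07 CPM with *Fmr1* siRNA B, so that the highest of the latter was just below the lowest of the former. Its call with *Zfp598* siRNA A was lost without replicate 2 of that siRNA (-0.85), and that with *Zfp598* siRNA B without any 1 of 5 libraries, among them Scramble siRNA B replicate 3 (-0.36). *Atf5*, an ATF4 relative that is also controlled by translation, rose with *Fmr1* siRNA A (0.53) and *Zfp598* siRNA B (0.60) and was not called with *Fmr1* siRNA B (-0.20) or *Zfp598* siRNA A (0.11), and the first rise was not called without Scramble siRNA A replicate 2 (0.41). *Cebpb*, a dimer partner of ATF4, was called with no KD siRNA and changed by -0.46 to 0.40, with the widest standard errors among the members (0.232 to 0.238). Its libraries spread from 43.6 to 114 CPM within *Zfp598* siRNA A alone.

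Of the feedback regulators, *Trib3*, *Ppp1r15a*, *Chac1*, *Herpud1* and *Sesn2* fell with *Fmr1* siRNA B and *Ddit4* was not called. *Trib3* encodes a pseudokinase that binds and restrains ATF4. It had 303, 308 and 384 CPM with Scramble siRNA B, 108, 104 and 102 CPM with *Fmr1* siRNA B and 161, 167 and 182 CPM with *Zfp598* siRNA B. With Scramble siRNA A it had 268, 216 and 297 CPM, against 172, 163 and 183 CPM with *Fmr1* siRNA A and 156, 259.9 and 298 CPM with *Zfp598* siRNA A. Replicate 1 of *Zfp598* siRNA A was low, and replicates 2 and 3 reached the level of Scramble siRNA A. *Trib3* fell with *Fmr1* siRNA B (log2 -1.66, standard error 0.164, edgeR adjusted p = 3.61e-07), *Zfp598* siRNA B (-0.97) and *Fmr1* siRNA A (-0.59), and its change with *Zfp598* siRNA A was -0.14 (edgeR adjusted p = 0.644). The fall with *Fmr1* siRNA A was not called without Scramble siRNA A replicate 3 (-0.49).

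*Ppp1r15a* encodes GADD34, which brings a phosphatase to eIF2 and so ends the response. Its levels were 42.5, 53.0 and 51.7 CPM with Scramble siRNA A and 72.2, 70.2 and 80.1 CPM with *Fmr1* siRNA A. Scramble siRNA B gave 50.2, 53.6 and 87.6 CPM, with replicate 3 well above the others, and *Fmr1* siRNA B gave 19.4, 22.1 and 21.2 CPM. The *Zfp598* libraries had 25.5, 37.2 and 42.3 CPM (A) and 33.9, 40.7 and 38.7 CPM (B). Like *Atf3*, it rose with *Fmr1* siRNA A (0.59, edgeR adjusted p = 0.0170) and fell with *Fmr1* siRNA B (-1.61, edgeR adjusted p = 2.09e-06). It also fell with *Zfp598* siRNA B (-0.76), while the change with *Zfp598* siRNA A was -0.51 and not called (edgeR adjusted p = 0.0758). The rise with *Fmr1* siRNA A was not called without Scramble siRNA A replicate 1 (0.50) or *Fmr1* siRNA A replicate 3 (0.53).

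*Chac1*, whose product degrades glutathione, was the only member called lower with all 4 KD siRNAs. Its log2 fold changes were -0.38 with *Fmr1* siRNA A, -0.89 with *Fmr1* siRNA B, -0.62 with *Zfp598* siRNA A and -0.57 with *Zfp598* siRNA B. The first of these lay next to the threshold (edgeR adjusted p = 0.0456) and was lost when any of 13 of the 18 libraries was left out (-0.30 to -0.43). *Herpud1*, which helps degrade misfolded proteins at the endoplasmic reticulum, fell with *Fmr1* siRNA B (-0.70) and *Zfp598* siRNA A (-0.36) and changed by 0.02 with *Zfp598* siRNA B. *Sesn2*, a leucine-binding inhibitor of mTORC1, had the same pattern (-0.55, -0.41 and 0.05), with the call for *Zfp598* siRNA A lost without Scramble siRNA A replicate 3 (-0.39) or *Zfp598* siRNA A replicate 2 (-0.38). *Ddit4*, another inhibitor of mTORC1, was called with *Fmr1* siRNA A alone (-0.68), and its change of -0.31 with *Fmr1* siRNA B had an edgeR adjusted p of 0.189.

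**Figure D2:**
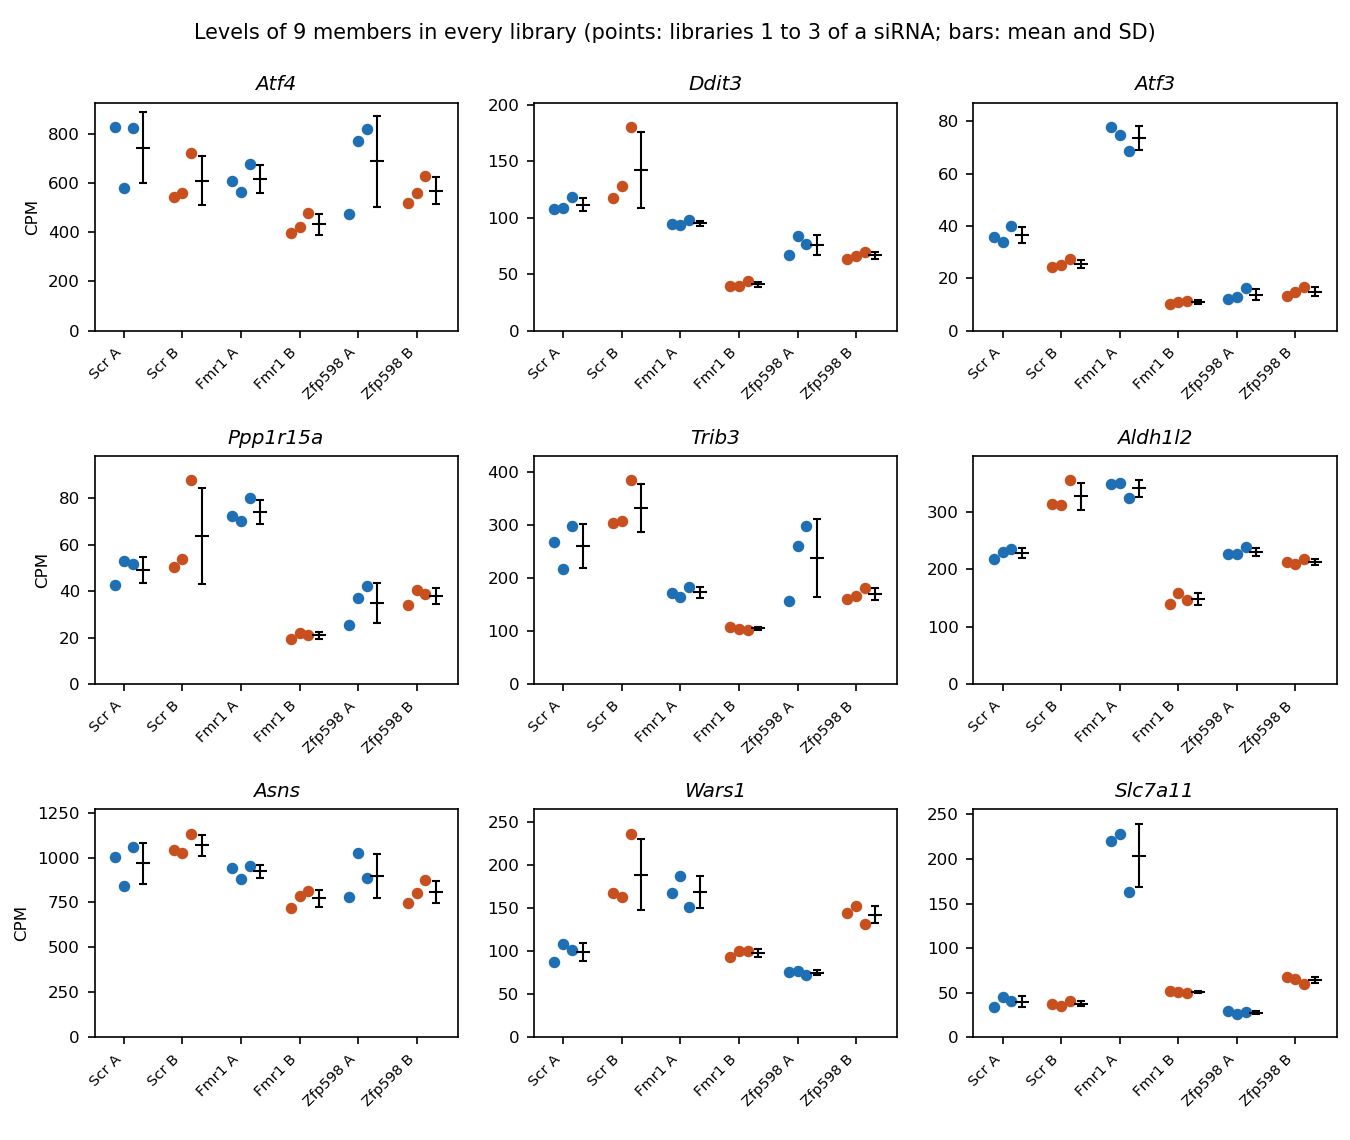
CPM of 9 members in each of the 18 libraries, by siRNA (siRNA A in blue, siRNA B in orange), with the mean and SD of the 3 libraries beside the points and all axes starting at 0. The *Fmr1* siRNA A libraries are the highest of all for *Atf3* (68.7 to 77.8 CPM) and *Slc7a11* (163 to 228 CPM), and the *Fmr1* siRNA B libraries are the lowest for *Ddit3* (39.1 to 43.7 CPM), *Trib3* (102 to 108 CPM) and *Ppp1r15a* (19.4 to 22.1 CPM).

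The 7 enzymes that make serine, one-carbon units, asparagine and cysteine all fell with *Fmr1* siRNA B, with a median of -0.55. *Aldh1l2*, a mitochondrial enzyme that turns formyl-folate into folate and carbon dioxide, fell most. It had 313, 312 and 354 CPM with Scramble siRNA B, 139, 159 and 146 CPM with *Fmr1* siRNA B and 212, 208 and 217 CPM with *Zfp598* siRNA B. With Scramble siRNA A it had 218, 230.5 and 235 CPM, with *Fmr1* siRNA A 348, 349.5 and 324 CPM and with *Zfp598* siRNA A 227, 226 and 239 CPM. The *Fmr1* siRNA A libraries reached the range of Scramble siRNA B, and those of *Zfp598* siRNA A and Scramble siRNA A could not be separated. *Aldh1l2* fell with *Fmr1* siRNA B (log2 -1.14, standard error 0.0763, edgeR adjusted p = 2.58e-09) and *Zfp598* siRNA B (-0.62), and rose with *Fmr1* siRNA A (0.58).

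*Phgdh* and *Psat1* encode the enzymes of the first steps from glycolysis to serine. *Phgdh* had 483, 477 and 578 CPM with Scramble siRNA B, 233, 259 and 304 CPM with *Fmr1* siRNA B and 292, 350.1 and 385 CPM with *Zfp598* siRNA B. It spread widely with *Zfp598* siRNA A (377, 650.1 and 815 CPM), where replicates 2 and 3, the libraries with the largest shares of the unannotated feature, were the highest of all 18. The changes of *Phgdh* were -0.95 with *Fmr1* siRNA B and -0.58 with *Zfp598* siRNA B, and 0.42 with *Zfp598* siRNA A was not called (edgeR adjusted p = 0.196). The call with *Zfp598* siRNA B was lost without any 1 of 5 libraries, namely the 3 of Scramble siRNA B and *Zfp598* siRNA B replicates 1 and 2 (-0.47 to -0.63). *Psat1* fell by similar amounts with both siRNA B knockdowns (-0.55 and -0.54), from 542, 501 and 532 CPM to 347, 378 and 354 CPM and 351, 377 and 358 CPM. These levels overlapped with those of Scramble siRNA A (364, 371 and 380.0 CPM), and *Psat1* was 0.50 higher with Scramble siRNA B than with Scramble siRNA A.

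*Mthfd2*, the mitochondrial methylene-tetrahydrofolate dehydrogenase, showed the same feature. It had 153, 179 and 189 CPM with Scramble siRNA A and 253, 251 and 277 CPM with Scramble siRNA B, and fell to 166, 171 and 179 CPM with *Fmr1* siRNA B and 156, 173 and 171 CPM with *Zfp598* siRNA B. The *Zfp598* siRNA A libraries were lower still (147, 130.2 and 119 CPM). The called changes were -0.60, -0.64 and -0.39, the last of which was lost without Scramble siRNA A replicate 3 (-0.32). *Shmt2*, which splits serine in mitochondria, fell with *Fmr1* siRNA B (-0.25) and was called with no other KD siRNA, and this call was lost without Scramble siRNA B replicate 2 or 3 or *Fmr1* siRNA B replicate 1 or 3 (-0.23 to -0.25). *Asns*, asparagine synthetase, fell with *Fmr1* siRNA B (-0.47, from 1044, 1026 and 1132 CPM to 718, 786 and 813 CPM) and with *Zfp598* siRNA B (-0.40), while -0.07 with *Fmr1* siRNA A and -0.11 with *Zfp598* siRNA A were not called. *Cth*, which makes cysteine from cystathionine, fell with *Fmr1* siRNA B (-0.32) and *Zfp598* siRNA A (-0.41). The first call was lost without any 1 of 7 libraries (-0.29 to -0.33) and the second without Scramble siRNA A replicate 3 (-0.25) or *Zfp598* siRNA A replicate 3 (-0.39).

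Among the transporters, *Slc7a11* had the largest change of any member. It encodes the exchange subunit of the cystine and glutamate antiporter, which supplies cysteine for glutathione. Its level was 33.6, 45.6 and 40.7 CPM with Scramble siRNA A and 220.0, 228 and 163 CPM with *Fmr1* siRNA A, a 5.08-fold rise (log2 2.35, standard error 0.122, edgeR adjusted p = 1.23e-10). With Scramble siRNA B it was 37.4, 35.5 and 41.0 CPM and with *Fmr1* siRNA B 51.6, 50.5 and 49.9 CPM (log2 0.42, standard error 0.120, edgeR adjusted p = 0.0161). *Zfp598* siRNA A gave 29.5, 25.7 and 28.3 CPM (-0.52) and *Zfp598* siRNA B 67.2, 65.4 and 60.2 CPM (0.76). *Slc7a11* was thus the only member called higher with both *Fmr1* siRNAs, and it fell with one *Zfp598* siRNA and rose with the other. In each comparison the libraries did not overlap. The fall with *Zfp598* siRNA A was not called without Scramble siRNA A replicate 2 (-0.41) or *Zfp598* siRNA A replicate 2 (-0.46), and the rise with *Fmr1* siRNA B was 0.36 to 0.40 without the 3 libraries named above.

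The other transporters did not follow *Slc7a11*. *Slc3a2*, the heavy chain that pairs with *Slc7a11* and with *Slc7a5* at the membrane, was called with *Fmr1* siRNA B alone (-0.44) and not without Scramble siRNA B replicate 3 (-0.39) or *Fmr1* siRNA B replicate 1 (-0.38), and its exons share 743 bases with *Snhg1* on the opposite strand. *Slc7a5*, the carrier of leucine and other large neutral amino acids, had 1056, 1069 and 1182 CPM with Scramble siRNA B, 609.8, 671 and 627 CPM with *Fmr1* siRNA B and 804, 886 and 818 CPM with *Zfp598* siRNA B. It fell in these comparisons (log2 -0.79 and -0.40) and with *Zfp598* siRNA A (-0.27), where the call was lost without any 1 of 13 libraries (-0.21 to -0.28), and it changed by 0.05 with *Fmr1* siRNA A. *Slc7a3*, a carrier of arginine and lysine, was called with no KD siRNA (-0.21 to 0.13).

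The 5 tRNA synthetases, which attach amino acids to their tRNAs, all fell with *Fmr1* siRNA B, with log2 fold changes of -0.95 for *Wars1* (tryptophan), -0.81 for *Gars1* (glycine), -0.62 for *Sars1* (serine), -0.58 for *Nars1* (asparagine) and -0.46 for *Cars1* (cysteine). With *Fmr1* siRNA A, 4 of the 5 changed by -0.04 to 0.02 and only *Wars1* was called (0.77). *Wars1* had 87.6, 108 and 102 CPM with Scramble siRNA A, 168, 188 and 151 CPM with *Fmr1* siRNA A and 75.8, 77.6 and 72.7 CPM with *Zfp598* siRNA A. Scramble siRNA B gave 167, 163 and 237 CPM, *Fmr1* siRNA B 93.2, 100.2 and 101 CPM and *Zfp598* siRNA B 144, 152 and 132 CPM. The *Fmr1* siRNA B libraries lay below those of Scramble siRNA B and within the range of Scramble siRNA A, and the *Zfp598* siRNA B libraries lay below the former and above the latter. The falls of *Wars1* with *Zfp598* siRNA A and B were -0.40 and -0.40, the first lost without any 1 of 11 libraries (-0.32 to -0.41) and the second without Scramble siRNA B replicate 3 (-0.21) or *Zfp598* siRNA B replicate 3 (-0.35). *Wars1* is also known as an interferon-induced gene. With *Zfp598* siRNA B, *Sars1* fell as well (-0.58, from 467, 528 and 575 CPM to 326, 356 and 369.8 CPM), and its change with *Zfp598* siRNA A was 0.00 (edgeR adjusted p = 0.988).

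Of the secreted factors, *Gdf15*, a circulating signal of cellular stress, fell with both *Fmr1* siRNAs and with *Zfp598* siRNA B. It had 98.2, 69.4 and 90.3 CPM with Scramble siRNA A and 33.7, 32.1 and 42.4 CPM with *Fmr1* siRNA A (-1.25, edgeR adjusted p = 6.27e-05). With Scramble siRNA B it had 53.7, 64.0 and 60.6 CPM, with *Fmr1* siRNA B 31.2, 37.0 and 47.5 CPM (-0.62) and with *Zfp598* siRNA B 27.2, 27.8 and 34.7 CPM (-0.99). The *Zfp598* siRNA A libraries (47.2, 68.9 and 92.5 CPM) overlapped with those of Scramble siRNA A. The call with *Fmr1* siRNA B was lost without Scramble siRNA B replicate 2 or 3 or *Fmr1* siRNA B replicate 1 or 2 (-0.50 to -0.62). *Stc2*, a secreted glycoprotein hormone, fell with *Fmr1* siRNA B (-0.77) and *Zfp598* siRNA B (-0.65), from 74.5, 64.9 and 74.2 CPM to 39.1, 40.8 and 45.4 CPM and 43.8, 42.6 and 49.7 CPM. The levels with both siRNA B knockdowns overlapped with those of Scramble siRNA A (45.1, 50.1 and 48.6 CPM). *Stc2* changed by 0.05 and -0.04 with the siRNA A knockdowns. *Fgf21*, a metabolic hormone, had 0 to 10 counts per library and the lipoprotein receptor *Vldlr* 0 to 10, so changes in them were not detectable at this depth.

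**Figure D3:**
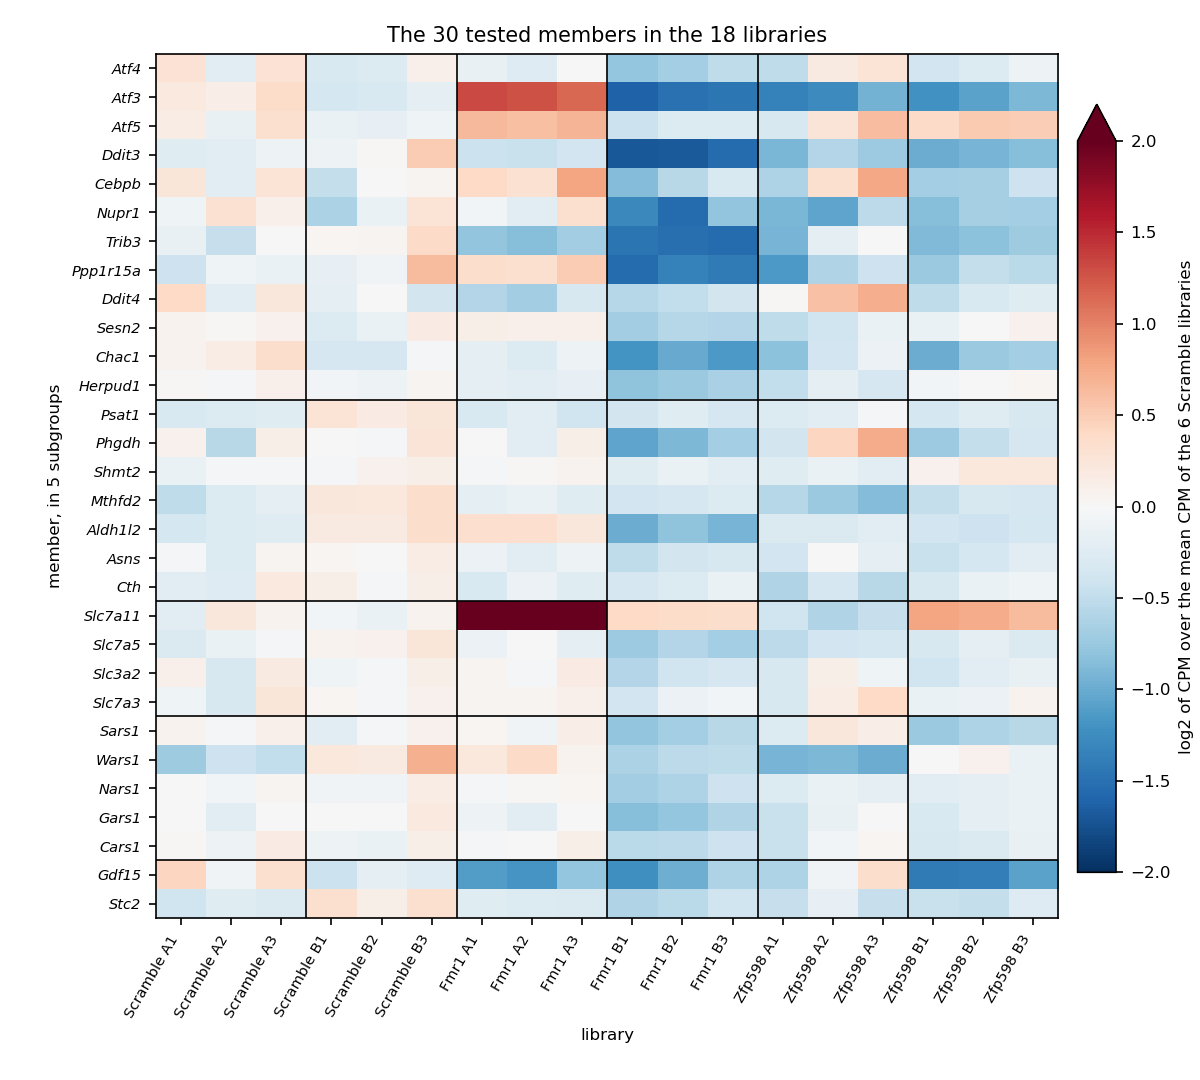
Log2 ratio of the CPM of each tested member (rows, in 5 subgroups) in each of the 18 libraries (columns, 3 per siRNA) to its mean CPM in the 6 Scramble libraries; the color scale ends at 2 and -2, and *Slc7a11* with *Fmr1* siRNA A lies above it. The 3 *Fmr1* siRNA B libraries are blue in nearly every row, *Zfp598* siRNA A replicates 2 and 3 differ from its replicate 1 in *Phgdh*, *Cebpb* and *Ddit4*, and Scramble siRNA B replicate 3 is the reddest Scramble library for *Ddit3*, *Ppp1r15a* and *Wars1*.

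Across the 4 comparisons, *Chac1* was the 1 member lower with every KD siRNA, 7 members were lower with *Fmr1* siRNA B and both *Zfp598* siRNAs (*Atf3*, *Chac1*, *Ddit3*, *Mthfd2*, *Nupr1*, *Slc7a5* and *Wars1*), and 4 rose with *Fmr1* siRNA A but fell with *Fmr1* siRNA B (*Aldh1l2*, *Atf3*, *Ppp1r15a* and *Wars1*). With both siRNA B knockdowns 16 members fell. Of all 19003 tested genes, 0.21% were lower with every KD siRNA, 0.489% with *Fmr1* siRNA B and both *Zfp598* siRNAs, and 5.1% with both siRNA B knockdowns, while 1.06% rose with *Fmr1* siRNA A but fell with *Fmr1* siRNA B. The 2 siRNA B comparisons share the Scramble siRNA B libraries, so the 16 are a description and not 2 independent results. Among the 16 were all 7 members called higher with Scramble siRNA B than with A, and also the 3 called lower with it. With all 6 Scramble libraries as control, 25 members were lower with *Fmr1* siRNA B and 17 with *Zfp598* siRNA B. Shares of all tested genes were not computed for that control. How far the Scramble difference enters the 16 was not tested.

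The difference between the effects of the *Fmr1* siRNAs was tested as an interaction. It was negative, meaning lower with siRNA B, for 22 of the 30 members and positive for 0 (1 at an unadjusted p under 0.05 in edgeR, and 0 with DESeq2), against 8.86% and 11.6% of all tested genes. The median difference was -0.66, and 8 members differed by more than 2-fold. *Atf3* differed most (-2.25, standard error 0.156, edgeR adjusted p = 5.81e-09), followed by *Ppp1r15a* (-2.20), *Slc7a11* (-1.93), *Aldh1l2* (-1.72), *Wars1* (-1.71) and *Ddit3* (-1.57). *Atf4* itself did not pass (-0.22, edgeR adjusted p = 0.572). With no Scramble library in the comparison, *Fmr1* siRNA B against *Fmr1* siRNA A, 22 members were lower, against 10.4% of all tested genes, with a median of -0.61. Of these, 19 were also among the 22 of the interaction, while *Mthfd2*, *Psat1* and *Stc2* were lower in the interaction only and *Atf4*, *Cebpb* and *Chac1* in the direct comparison only. Without Scramble siRNA B replicate 3, 18 members passed in the interaction test, and without *Fmr1* siRNA B replicate 1, 19. Single libraries ended the call for *Slc3a2* (8 libraries, -0.37 to -0.54), *Cars1* (7, -0.38 to -0.47), *Nupr1* (5, -0.73 to -0.94) and *Shmt2* (3, -0.31 to -0.32).

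For *Zfp598*, 7 members had a lower effect with siRNA B and 4 a higher one, against 10.6% and 9.77% of all tested genes, with a median of -0.16. *Phgdh* (-1.0), *Trib3* (-0.83) and *Aldh1l2* (-0.64) led the lower group, and *Slc7a11* (1.28, edgeR adjusted p = 2.37e-05) the higher one. The counts depended on single libraries, with 11 lower without *Zfp598* siRNA A replicate 1 and 2 higher without Scramble siRNA A replicate 3, Scramble siRNA B replicate 1, Scramble siRNA B replicate 2 or *Zfp598* siRNA B replicate 3. Without replicates 2 and 3 of *Zfp598* siRNA A together, 4 were lower. Single libraries ended the call for *Sesn2* (8 libraries, 0.36 to 0.45), *Ddit3* (5, -0.34 to -0.53), *Herpud1* (4, 0.34 to 0.36) and *Phgdh* (1, -0.90). Set directly against *Zfp598* siRNA A, *Zfp598* siRNA B gave 7 higher and 7 lower members, and *Wars1* was 0.92 higher although its interaction was -0.01. The shares of all tested genes were not computed for this direct comparison, so its counts are a description.

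When both siRNAs of a condition were pooled, 6 libraries against 6, fewer members were called. The 6 libraries of a condition came from 2 siRNAs, so the spread in this model mixes siRNAs and knockdowns. In *Fmr1* KD, *Slc7a11* rose (1.70) and 4 members fell (*Trib3* -1.09, *Gdf15* -0.96, *Ddit3* -0.90 and *Herpud1* -0.44), against 2.62% and 3.43% of all tested genes. *Atf3* had a pooled value of 0.45 (edgeR adjusted p = 0.581), with siRNA A libraries above and siRNA B libraries below all 6 Scramble libraries. In *Zfp598* KD, 2 members fell (*Ddit3* -0.83 and *Mthfd2* -0.54) and 0 rose (0 at an unadjusted p under 0.05 in edgeR, and 0 with DESeq2), against 0.968% and 0.831%. Of the 30 members, 26 had a value below 0 in each pooled comparison, with medians of -0.26 and -0.25. Of all tested genes, 51.2% (*Fmr1* KD) and 51.6% (*Zfp598* KD) had a value above 0. The pooled comparisons share all 6 Scramble libraries, so they are not independent. The pooled count of lower members in *Fmr1* KD was 2 without *Fmr1* siRNA B replicate 1, and single libraries ended the call for *Herpud1* (7 libraries, -0.37 to -0.46) and *Gdf15* (3, -0.91 to -0.93). In *Zfp598* KD, 10 of the 18 libraries, left out singly, lowered it to 1 (Scramble siRNA A replicates 2 and 3 and *Zfp598* siRNA A replicate 1) or 0 (all 6 siRNA B libraries of Scramble and *Zfp598* KD and *Zfp598* siRNA A replicate 2), and without *Zfp598* siRNA A replicates 2 and 3 together it was 5. *Ddit3* lost its call without any 1 of 11 libraries (-0.70 to -0.88) and *Mthfd2* without any 1 of 8 (-0.45 to -0.58). When the 3 libraries of a siRNA were added up, leaving 2 values a condition, no member was called in either KD by edgeR. At an unadjusted p under 0.05 in edgeR, 1 was higher and 3 lower in *Fmr1* KD and 3 lower in *Zfp598* KD. The share of all tested genes at that threshold was not computed, so these counts are a description.

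The rest of the pathway was described by 9 further lists of genes. Their counts stand against the shares of all tested genes that rose and fell, which were 9.35% and 12.7% with *Fmr1* siRNA A, 11.0% and 10.4% with *Fmr1* siRNA B, 5.60% and 5.43% with *Zfp598* siRNA A, and 12.0% and 13.2% with *Zfp598* siRNA B. In lists this short, a single called gene is near those shares and is not a result about the list. Between the Scramble siRNAs, 1 to 7 genes of each list were higher with siRNA B and up to 3 lower. Upstream, of 8 genes for the eIF2 kinases and their inputs, 2 rose and 1 fell with *Fmr1* siRNA A, 1 rose and 2 fell with *Fmr1* siRNA B, 1 fell with *Zfp598* siRNA A, and 2 rose and 2 fell with *Zfp598* siRNA B. *Impact*, an inhibitor of GCN2 activation, rose with *Fmr1* siRNA A (0.85). *Dele1*, which relays mitochondrial stress to an eIF2 kinase, fell with *Zfp598* siRNA B (-0.80), *Fmr1* siRNA B (-0.48) and *Fmr1* siRNA A (-0.36). Its change with *Zfp598* siRNA A (0.19) was not called. It was also called higher with Scramble siRNA B than with A (0.40, means 111 and 84.5 CPM). The means in the comparisons with a fall (63.7, 79.8 and 66.0 CPM) were below both Scramble means. *Eif2ak3*, which encodes the endoplasmic reticulum kinase PERK, fell with *Fmr1* siRNA B (-0.39). Of 10 genes for eIF2, its exchange factor and phosphatase, 3 rose and 2 fell with *Fmr1* siRNA A, 3 fell with each of the siRNA B knockdowns, and 1 rose with *Zfp598* siRNA A.

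Downstream, of 15 other cytosolic tRNA synthetases, 9 fell with *Fmr1* siRNA B, led by *Eprs1* (-1.19), *Yars1* (-0.63) and *Iars1* (-0.53), with a median of -0.28 over the list. With *Fmr1* siRNA A 7 of them rose, led by *Rars1* (0.61), with a median of 0.25. With *Zfp598* siRNA B, 7 fell and 2 rose (median -0.28), and with *Zfp598* siRNA A 3 fell (median -0.05). Of the 15, 5 were higher with Scramble siRNA B than with A (*Eprs1*, *Qars1*, *Farsb*, *Iars1* and *Kars1*) and 1 lower. For *Qars1*, *Farsb* and *Kars1*, means with *Fmr1* siRNA B (81.0, 68.2 and 197 CPM) were near those with Scramble siRNA A (77.3, 67.8 and 198 CPM). *Eprs1* and *Iars1* (454 and 212 CPM) were below both Scramble means (724 and 1040 CPM, and 255 and 306 CPM). With *Fmr1* siRNA A, the means of *Eprs1*, *Qars1*, *Farsb* and *Kars1* were 859, 93.6, 89.3 and 241 CPM. These were below or near those with Scramble siRNA B (1040, 105, 88.1 and 237 CPM). The means of *Rars1*, *Tars1* and *Lars1* with *Fmr1* siRNA A (83.5, 167 and 301 CPM) were above both Scramble means. Of 9 tested further genes linked to ATF4, 6 fell with *Fmr1* siRNA B, led by *Ero1a* (-1.28), *Rab32* (-1.16) and *Akna* (-1.09), and 5 with *Zfp598* siRNA B, with medians of -0.77 and -0.45. Between the Scramble siRNAs, 3 of these genes were higher and 2 lower with siRNA B, and *Rab32* differed by 1.37 there, so that its means with *Fmr1* siRNA B (5.18 CPM) and *Zfp598* siRNA B (4.93 CPM) were near that with Scramble siRNA A (4.48 CPM) and below that with Scramble siRNA B (11.6 CPM). *Ero1a*, an oxidase of the endoplasmic reticulum, also fell with *Fmr1* siRNA A (-1.11). Of the 12 genes of the unfolded protein response that other branches control, 8 fell with *Fmr1* siRNA A and 9 with *Fmr1* siRNA B, led by *Edem1* (-0.90) with siRNA A and by *Hspa5* (-1.35), the chaperone BiP, with siRNA B, and the medians were -0.45 and -0.61. With *Zfp598* siRNA A 4 of these 12 fell and 1 rose (median -0.35), and with *Zfp598* siRNA B 2 fell and 1 rose (median -0.19). *Edem1* was the gene that rose with both *Zfp598* siRNAs (0.46 and 0.44), and with *Fmr1* siRNA B it was not called (0.08). *Dnajb9* rose with *Fmr1* siRNA A (0.58).

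Other amino acid transporters went both ways. Of 11, 4 rose and 4 fell with *Fmr1* siRNA B, where *Slc43a1* (1.66) and *Slc6a6* (1.01) rose and *Slc6a9* (-0.89) fell. With *Fmr1* siRNA A 2 rose and 3 fell. With *Zfp598* siRNA B 5 rose and 1 fell, whereas with *Zfp598* siRNA A 0 rose and 4 fell. *Slc43a1* was near the floor, with means of 0.916 CPM with Scramble siRNA B and 2.92 CPM with *Fmr1* siRNA B. Scramble siRNAs A and B differed in *Slc6a6* (means 236 and 146 CPM) and *Slc6a9* (31.2 and 42.5 CPM). The *Fmr1* siRNA B means (295 and 22.9 CPM) lay outside both Scramble means. With *Zfp598* siRNA B, *Slc6a6* (mean 223 CPM) and *Slc36a1* (212 CPM) were called higher and lay between the Scramble means. For *Slc36a1* those means were 256 CPM with siRNA A and 147 CPM with siRNA B. Of 16 tested enzymes of serine, folate and proline synthesis, 5 fell and 3 rose with each siRNA B knockdown. *Pycr1*, which makes proline, fell with both (-0.84 and -1.11). Of 9 tested bZIP partners, *Cebpg*, a dimer partner of ATF4, fell with both *Fmr1* siRNAs (-0.80 and -0.62). *Jun* rose with *Fmr1* siRNA B (0.96) and *Zfp598* siRNA B (0.68) and fell with *Zfp598* siRNA A (-0.97), and its log2 difference between Scramble siRNA B and A was -1.29 (mean 35.3 against 86.3 CPM), with the means of all 4 KD siRNAs between them (44.2 to 82.8 CPM). Of 10 genes that feed into mTORC1, 4 rose and 2 fell with *Fmr1* siRNA A, and *Sesn3*, a sestrin like *Sesn2*, fell with both *Fmr1* siRNAs (-0.66 and -0.61).

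**Figure D4:**
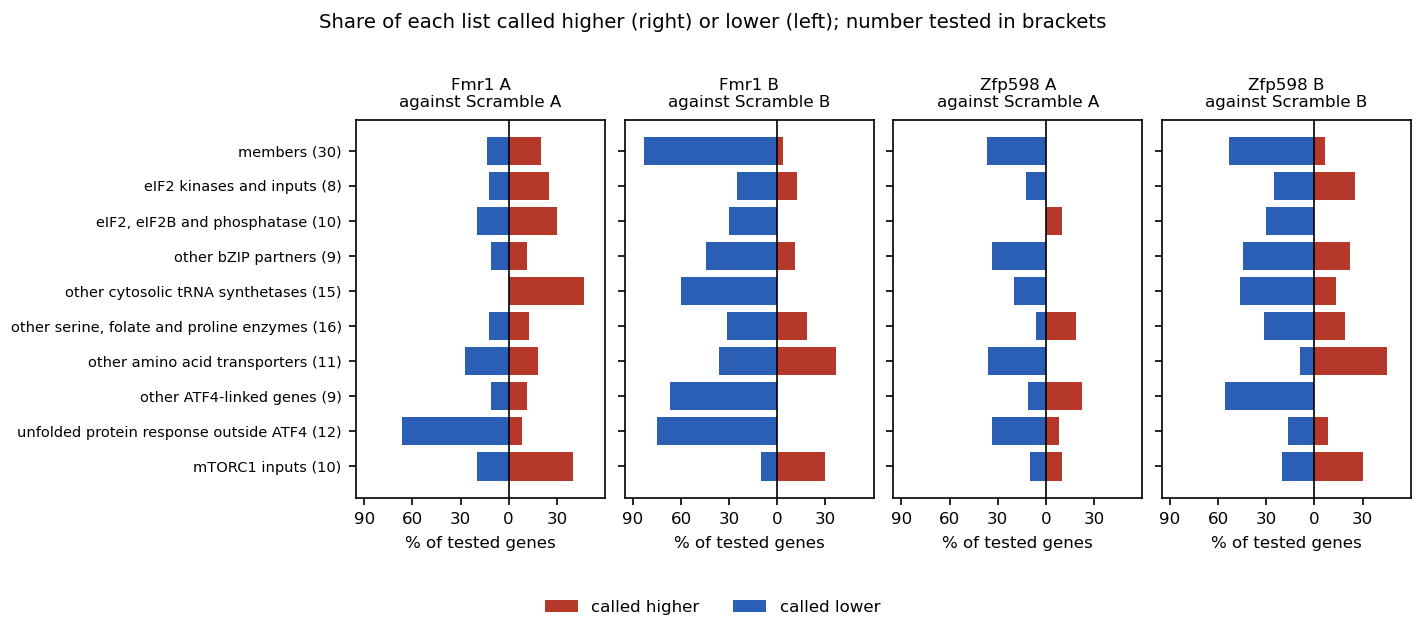
Percent of the tested genes of each list called higher (red, to the right) or lower (blue, to the left) at an adjusted p under 0.05, for each KD siRNA against the Scramble siRNA of the same letter; the number of genes tested stands in brackets. The members (30) are the list with the largest share called lower with *Fmr1* siRNA B. Of the other cytosolic tRNA synthetases (15), 7 are called higher with *Fmr1* siRNA A and 9 lower with *Fmr1* siRNA B. Each siRNA has its own Scramble control, and 5 of the 15 were higher with Scramble siRNA B than with A.

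Members with and without the C/EBP-ATF response element in the searched window were set side by side. With *Fmr1* siRNA B, 7 of the 8 tested members that held it in their promoter window fell and 1 rose (median -0.85), and 12 of the 15 with no match fell (median -0.55). With *Zfp598* siRNA A, 5 of the 8 fell (median -0.44) against 3 of the 15 (median -0.09). With *Fmr1* siRNA A, 2 rose and 2 fell in both groups. With *Zfp598* siRNA B, 5 of the 8 fell and 1 rose (median -0.49), and 8 of the 15 fell and 1 rose (median -0.54). *Slc7a11* and *Atf3*, the members that rose most with *Fmr1* siRNA A, both held the element, as did *Trib3* and *Chac1*, which fell in that comparison. These counts are descriptions, with no test between the groups.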

How the data were processed

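RNA-seq libraries of N2A cells were grouped by the siRNA in the sample labels. The authors used TrimGalore for trimming, STAR for alignment to GRCm39 and featureCounts for reads per gene, and the deposited values are whole-number counts without normalization. The annotation release, strand setting and handling of reads with several alignments are not given in the sources used here. Of the 32 members, 16 share exon bases with another gene, mostly on the opposite strand, which makes their counts uncertain.

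From the deposited counts, CPM values (TMM library sizes) and tests were computed in edgeR 4.0.16 (R 4.3.3). The filterByExpr step, set to a count of at least 10 and a total of at least 15, left 19003 genes. The quasi-likelihood test (glmQLFit, glmQLFTest) was run in a model of 6 siRNA groups, and in a model of 3 conditions for pooled siRNAs, with Benjamini-Hochberg adjustment over all 19003 genes. Standard errors were derived from the F statistics. The script was tested on simulated data. Alternatives were DESeq2 1.42.0, RLE size factors, no filter, all 6 Scramble libraries as control, direct comparisons of siRNAs, a 2-fold criterion, the siRNA letter as a term, removal of the most counted feature, a replicate block and leaving out each library. Counts summed per siRNA, and leaving out *Zfp598* siRNA A replicates 2 and 3 together, were chosen after seeing the data.

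Symbols and positions came from GENCODE M39, which has an entry for 54749 genes, and promoters from RefSeq (GRCm38.p6), placed on GRCm39 by exact match. Genes named are the 32 members, the targets and up to 3 of the largest called changes per pathway list. The members, lists and tests were chosen with earlier results of these data known. Total counts of 7674724 to 15414590 per library limited *Fgf21* and *Vldlr* only. No pair of replicates agreed within sampling noise (chi-square per degree of freedom at least 2.78).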

Additional observations from a re-analysis of the deposited data

Results flagged for a closer look

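In 3 of 90 tested sets of 6 libraries of a condition, 1 library stood apart from the other 5 by Dixon's test at the 95% level, which chance does in about 1 of 20 sets. *Ddit3* was highest in Scramble siRNA B replicate 3 with 180.57 CPM, and the next highest Scramble library had 128.58 CPM. *Ppp1r15a* was highest in the same library with 87.63 CPM, against 53.62 CPM in the next. *Psat1* was highest among the *Zfp598* KD libraries in siRNA A replicate 3 with 441.09 CPM, against 381.38 CPM in the next. Both siRNAs of a condition enter these sets, so they are not replicates of a single siRNA.

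The effects of the 2 siRNAs of a target differed by the interaction test of edgeR (adjusted p under 0.05) for 22 members in *Fmr1* KD. The differences (siRNA B minus siRNA A, log2) were -2.25 for *Atf3*, -2.20 for *Ppp1r15a*, -1.93 for *Slc7a11*, -1.72 for *Aldh1l2*, -1.71 for *Wars1* and -1.57 for *Ddit3*. Smaller differences were found for *Trib3* (-1.07), *Phgdh* (-1.01), *Nupr1* (-0.97), *Slc7a5* (-0.84), *Stc2* (-0.81), *Gars1* (-0.78), *Mthfd2* (-0.73) and *Atf5* (-0.72). The remaining members that passed were *Sars1* (-0.60), *Sesn2* (-0.60), *Nars1* (-0.59), *Psat1* (-0.51), *Slc3a2* (-0.50), *Herpud1* (-0.48), *Cars1* (-0.46) and *Shmt2* (-0.34).

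In *Zfp598* KD the effects differed for 11 members. They were lower with siRNA B for *Phgdh* (-1.0), *Trib3* (-0.83), *Aldh1l2* (-0.64), *Psat1* (-0.63), *Stc2* (-0.61), *Sars1* (-0.57) and *Ddit3* (-0.54). They were higher with it for *Herpud1* (0.38), *Sesn2* (0.46), *Atf3* (0.65) and *Slc7a11* (1.28). The Scramble siRNAs of both letters enter each of these differences.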

How the results depend on the processing

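Over 29 settings, 6475 of 6900 recomputed values of single members kept their side of the threshold (156 of them, not called, changed sign), 308 lost the call, 111 gained one and 6 reversed in sign. None of these 6 was called in both directions, and only *Wars1* with *Zfp598* siRNA B was called in the main comparison. With all 6 Scramble libraries as control, *Stc2* with *Fmr1* siRNA A was -0.24, *Aldh1l2* with *Zfp598* siRNA A -0.24 and *Wars1* with *Zfp598* siRNA B 0.06. With *Zfp598* siRNA B set directly against siRNA A, *Chac1* was -0.38, *Mthfd2* 0.33 and *Wars1* 0.92. In these 6 the control libraries are what changed.

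Counts of members called moved by more than 1.5 times as follows. With all 6 Scramble libraries as control, 7 were lower with *Fmr1* siRNA A and 1 higher with *Zfp598* siRNA A. With a change of over 2-fold required, 2 were higher and 1 lower with *Fmr1* siRNA A, 0 and 6 with *Fmr1* siRNA B, 1 lower with *Zfp598* siRNA A, 0 and 1 with *Zfp598* siRNA B, and 0 and 0 between the Scramble siRNAs. That criterion left 8 lower for the *Fmr1* interaction, 1 higher and 1 lower for the *Zfp598* interaction, 1 lower in pooled *Fmr1* KD and 0 in pooled *Zfp598* KD. Without a filter on low counts, 2 were higher with *Zfp598* siRNA A, 5 lower between the Scramble siRNAs and 1 higher for the *Fmr1* interaction. RLE size factors gave 1 lower in pooled *Zfp598* KD. The direct comparison of the *Zfp598* siRNAs gave 7 higher. Without both *Zfp598* siRNA A libraries of high feature share, 4 were lower for the *Zfp598* interaction and 5 in pooled *Zfp598* KD. Counts summed per siRNA gave 0 higher and 0 lower in *Fmr1* KD and 0 lower in *Zfp598* KD. Except where a value above shows it, the cause was not tested.

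With the replicate number as a block, 1 member was higher for the *Fmr1* interaction and 0 were lower in pooled *Zfp598* KD. The other counts stayed within 1.5 times. Deviations of 45 pairs with the same number correlated at -0.311 to 0.255 (median 0.037, against -0.012 for 90 pairs with other numbers). By mean correlation, 11 of 18 libraries were closest to their own number. The labels do not say whether a number marks a shared batch, so the block is given only here.

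Leaving out each library in turn gave 5 to 6 higher and 2 to 5 lower with *Fmr1* siRNA A, 0 to 1 and 20 to 26 with *Fmr1* siRNA B, 0 to 3 and 6 to 12 with *Zfp598* siRNA A, and 2 to 2 and 13 to 19 with *Zfp598* siRNA B. It gave 5 to 8 higher and 1 to 4 lower between the Scramble siRNAs, 0 to 1 and 18 to 25 for the *Fmr1* interaction, and 2 to 5 and 5 to 11 for the *Zfp598* interaction. In the pooled comparisons it gave 1 to 1 and 2 to 6 for *Fmr1* KD and 0 to 0 and 0 to 2 for *Zfp598* KD. Depth limited only *Fgf21* and *Vldlr*, and *Cebpb* was limited by the spread between libraries.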
